A study of Mus musculus with 30 samples.

Results

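Deletion K is a 7.89 Mb segment of the X chromosome removed from 1 of the 2 X chromosomes of female mouse embryonic stem cells (mESCs), at chrX:145506466-153393474 in mm10. Its 2 libraries, Deletion K.1 and Deletion K.2, come from 2 clones and are 2 of the 30 bulk RNA-seq libraries of the series. They were set against the 13 libraries of the same sequencing batch and the same founder line that keep both copies of the segment. These 13 libraries are Deletion A, B and AB with 1 clone each, and both clones of Deletion C, D, F, H and I, which lack other X segments. The annotation places 157 of the 2585 X-linked genes of the count table wholly inside deletion K, of which 45 are protein-coding and 78 are pseudogenes.

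The cells are F1 hybrids of 129/Sv and Cast/Ei, so reads over a strain difference can be given to the Mus (129/Sv) or the Cast chromosome. Every deletion line used here is Rnf12+/-, with the lesion on the Mus allele. The segments were removed from the Mus X chromosome with Cas9 and a homology arm vector, which left a neomycin cassette at the site. The 2 K libraries come from independent clones of the 1 deletion. The cells were grown on mouse embryonic fibroblast feeders, which were removed by pre-plating before RNA extraction. The borders of the deletion had been set with the help of allele-specific reads, so the loss of Mus reads inside it is a description and was not tested.

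Mammalian X and Y chromosomes derive from a pair of autosomes, and most X-linked genes have no partner left on the Y. In male cells, and in female cells once 1 X chromosome is inactivated, X-linked genes are transcribed from a single copy. X-chromosome upregulation (XCU) is the higher output of that single active copy. Female mESCs carry 2 active X chromosomes, in which XCU is low. A heterozygous deletion in such cells leaves a stretch of the X with 1 active copy while the rest keeps both, and the comparison asks what the remaining copy then gives.

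The segment holds genes of several well-known complexes. Smc1a encodes a core subunit of cohesin, the ring that holds sister chromatids and chromatin loops together. Kdm5c and Phf8 encode histone demethylases, and Huwe1 a large ubiquitin ligase. Hsd17b10 encodes a mitochondrial dehydrogenase that is also a subunit of mitochondrial RNase P.

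Total counts of the 15 libraries ran from 8815980 to 10679746, with 9989407 in K.1 and 10403459 in K.2. Between 1115259 and 1334130 counts of a library were assigned to 1 of the alleles. Gene medians of every autosome lay between -0.02 and 0.03 in both K libraries on the log2 scale, relative to the median of the 13. Among the 13, Deletion I.1 stood at 0.49 over chromosome 1 and 0.50 over chromosome 14, and Deletion F.2 at 0.32 over chromosome 8. Without these libraries 12 genes inside deletion K were lower in total count, against 13 with them. The summed level of 20 fibroblast feeder markers was 2374 and 1901 CPM (counts scaled to library size) in K.1 and K.2 and 1835 to 3626 CPM in the 13, with a median of 2751 CPM. No marker of that list was at 0 in the K libraries, and 19 of the 20 had a fold change below 0, with a median log2 change of -0.79. None was called per copy in edgeR. An unadjusted p under 0.05 was found for 4 of the 20, against 4.27% of all genes tested per copy. The part of feeder cells in the results was not tested, and in bulk RNA fewer cells of a type and less RNA per cell cannot be told apart. All 15 naive pluripotency markers were expressed, and their summed level of 7474 and 6760 CPM in the K libraries lay within the 5325 to 8860 CPM of the 13.

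With 1 copy left, the protein-coding genes inside deletion K were at close to 50% of their level in the 13 libraries. Summed over the 45 protein-coding genes, the total level was 2364 CPM in K.1 and 2267 CPM in K.2. The 13 libraries lay between 4123 and 4679 CPM, with a median of 4505 CPM and a mean of 4446 ± 194 (SD, n = 13). The K libraries stood at 52.1% of that mean and did not overlap with any other library. CPM values were scaled by TMM factors from autosomal genes, so a loss on the X does not enter the scale.

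The loss was on the Mus side. K.1 had 12 Mus and 1350 Cast counts over these genes, a Mus share of 0.881% (95% Wilson interval 0.505 to 1.53). K.2 had 14 Mus and 1479 Cast counts, a share of 0.938% (0.559 to 1.57). In the 13 libraries the Mus share ran from 49.5% to 52.3%. The XO XCastO129 cells, which have a single X chromosome of Cast origin and were read as single reads, gave 1.61% and 1.97% over the same genes in a different sequencing batch. Intervals cover counting error only. The few Mus counts of the K libraries came from 9 genes, with 6 and 5 at Maged2 and 1 and 4 at Kdm5c.

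**Figure D1:**
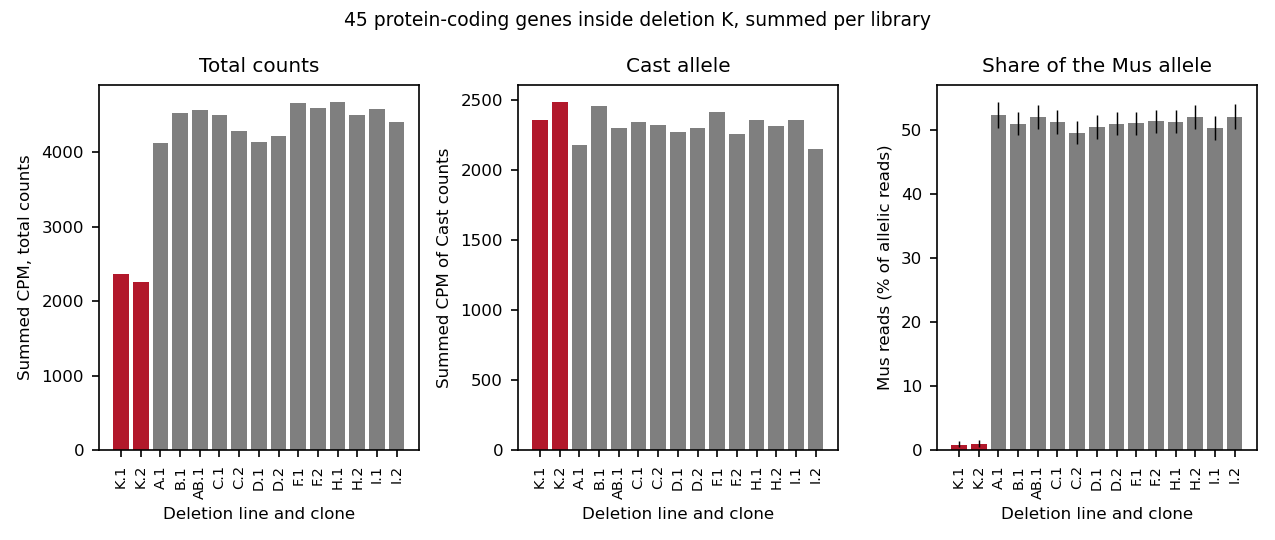
Summed level of the 45 protein-coding genes inside deletion K, per library (red, the 2 deletion K libraries; grey, the 13 others). Left, total counts in CPM; middle, Cast counts in CPM of the Cast counts; right, Mus reads as percent of allelic reads with 95% Wilson intervals. The K bars are low at 2364 and 2267 CPM on the left and among or above the others in the middle.

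The Cast copy itself was counted at about the same level as in the other lines. Summed Cast counts of the 45 genes, scaled to the Cast counts of each library, were 2359 CPM in K.1 and 2485 CPM in K.2. The 13 libraries ran from 2150 to 2453 CPM with a median of 2310 CPM. K.1 therefore lay within the range of the 13 and K.2 above all of them, and the mean of both was 105% of the mean of the 13. A level of 200% would stand for a Cast copy that makes up the whole loss.

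Of the 157 genes inside, 33 passed the filter of a mean count of at least 10 over the 15 libraries, 27 protein-coding genes and 6 pseudogenes. The other 18 protein-coding genes had mean counts of at most 1.07, and 7 of them had no count in any of the 15 libraries. Among these were Htr2c (a serotonin receptor), Il13ra2 (an interleukin 13 receptor chain) and Alas2 (the erythroid enzyme of haem synthesis), with at most 2 counts in a library.

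In total counts, edgeR's quasi-likelihood test with Benjamini-Hochberg adjustment over 14863 genes called 13 of the 33 genes lower in deletion K and none higher. Over all genes tested, 0.0875% were called lower and 0.00673% higher. All 13 were protein-coding, and 24 of the 27 protein-coding genes had an unadjusted p under 0.05, against 4.34% of all genes tested. Every protein-coding gene tested had a fold change below 0, from -1.57 to -0.44 on the log2 scale with a median of -0.97. The quartiles were -1.07 and -0.84, and the median gene outside, autosomal or X-linked, stood at -0.01 and 0.04. Both K libraries lay below all 13 others for 19 of the 27, against 1.32% of all genes tested, and above all 13 for none, against 1.29%. The 95% intervals of 24 genes held -1, the value of a simple loss of 1 of 2 equal copies, none lay wholly above it, and those of Tmem29, Tro and Hsd17b10 lay below it.

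Deletion K is 1 line set against 8 others, and taking a line as the unit an exact permutation test could not go below p = 0.111. With the line as a random block in limma voom, 5 of the 13 genes remained called, which were Phf8, Huwe1, Hsd17b10, Smc1a and Kdm5c.

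**Figure D2:**
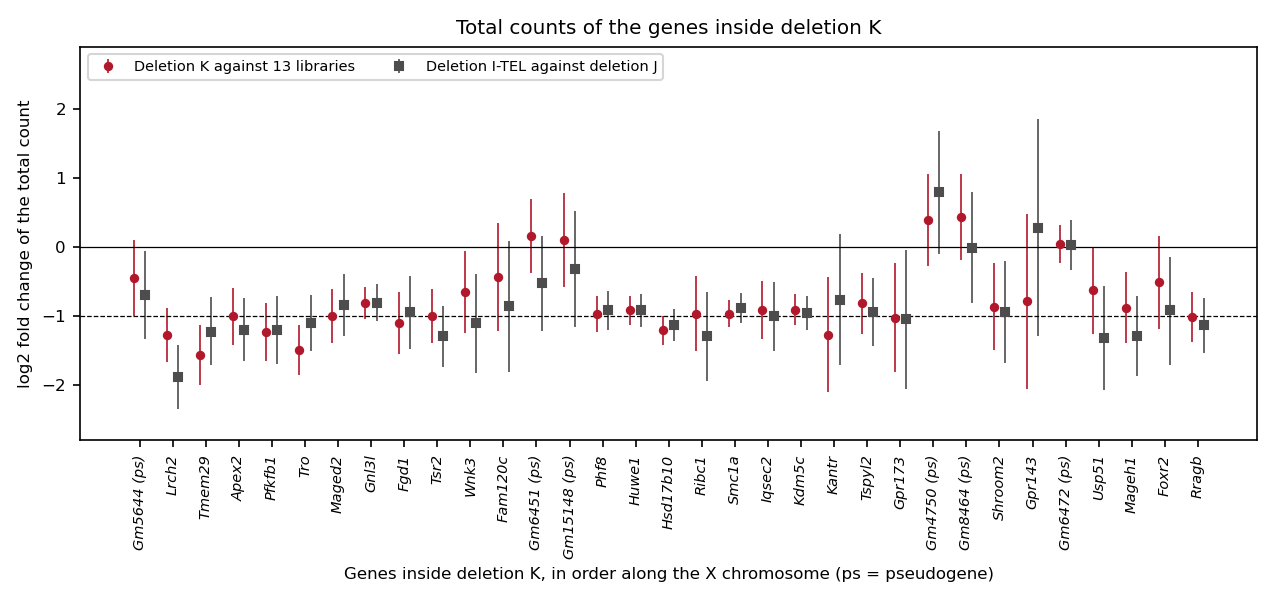
Log2 fold change of the total count with its 95% interval for the 33 genes inside deletion K that passed the filter, in order along the X chromosome. Red circles, deletion K against the 13 libraries; grey squares, Deletion I-TEL against Deletion J; dashed line, -1. The protein-coding genes lie around -1 in both comparisons and pseudogenes (ps) nearer to 0.

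Smc1a, Kdm5c and Phf8, which act on chromatin, each fell. Smc1a (cohesin) was at 236 and 208 CPM in the K libraries and at 382 to 470 CPM in the 13, median 439 CPM. Its total level changed by -0.97 (95% interval -1.17 to -0.77, adjusted p = 7.3e-05). The groups were far apart, with no library of either group in between.

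Kdm5c, which demethylates lysine 4 of histone H3, was at 309.5 and 291 CPM in K.1 and K.2 and at 487 to 630 CPM in the others, median 568 CPM. The log2 change was -0.91 (-1.13 to -0.69, adjusted p = 0.000286). Phf8, a demethylase of other histone lysines, was at 47.6 and 45.6 CPM, with 78.8 to 103 CPM in the 13 and a median of 93.5 CPM. Its change was -0.97 (-1.23 to -0.71, adjusted p = 0.000734). For both genes every K value was under every other value.

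Huwe1, the ubiquitin ligase, had the most reads of the segment. It was at 1027 and 974 CPM in the K libraries and between 1607 and 2141 CPM in the others, median 1886 CPM. It changed by -0.92 (-1.13 to -0.71, adjusted p = 0.000147) and, with Smc1a, kept its call in all 32 alternative settings tried for total counts. Per length, as TPM (counts scaled to gene length and library size), Huwe1 (149 and 139.9 TPM), Kdm5c (148 and 138), Smc1a (139 and 122) and Hsd17b10 (130.1 and 120.4) led the protein-coding genes inside in both K clones.

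Hsd17b10, the mitochondrial enzyme, had the smallest p. Its level was 49.7 and 46.2 CPM in K.1 and K.2, and the 13 libraries lay in a narrow band of 102 to 122 CPM with a median of 109.7 CPM. The log2 change was -1.21 with an interval of -1.42 to -1.01.

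Gnl3l, Tsr2, Rragb, Pfkfb1 and Lrch2 fell as well. Gnl3l, a nucleolar GTP-binding protein, was at 185 and 189 CPM against 298 to 401 CPM, median 318 CPM. Its change of -0.81 (-1.04 to -0.58, adjusted p = 0.00149) was the smallest among the called genes. Tsr2, a chaperone of a small-subunit ribosomal protein, was at 41.7 and 34.4 CPM against 58.3 to 93.4 CPM, and its call was marginal (adjusted p = 0.0481). No K value of these genes reached the lowest of the 13.

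Rragb, a Rag GTPase that links amino acids to mTORC1, was at 44.8 and 38.2 CPM against 69.5 to 107 CPM, a change of -1.02 (-1.38 to -0.66, adjusted p = 0.0161). Pfkfb1, a bifunctional enzyme that tunes glycolysis, was at 11.2 and 9.11 CPM against 18.6 to 31.3 CPM, a change of -1.24 (-1.66 to -0.82, adjusted p = 0.0103). Lrch2, a leucine-rich repeat protein, was at 7.7 and 7.96 CPM against 15.5 to 24.1 CPM and changed by -1.28 (-1.67 to -0.89, adjusted p = 0.00325). In all these genes the 2 clones lay closer to each other than to any other library.

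The steepest falls were those of Tmem29 and Tro. Tmem29, a predicted membrane protein, was at 5.8 and 5.08 CPM against 11.4 to 19.4 CPM, a change of -1.57 (-2.01 to -1.14, adjusted p = 0.00117). Tro (trophinin), a MAGE family protein, was at 37.4 and 38.4 CPM against 82.1 to 140 CPM, a change of -1.50 (-1.86 to -1.14, adjusted p = 0.000286). Its relative Maged2 was at 23.1 and 24.8 CPM against 38.6 to 61.5 CPM, with a change of -1.0 and an adjusted p of 0.0481. The third MAGE gene of the segment, Mageh1, was not called, with 15.0 and 9.98 CPM against 14.4 to 28.4 CPM and a change of -0.88 (-1.40 to -0.37).

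**Figure D3:**
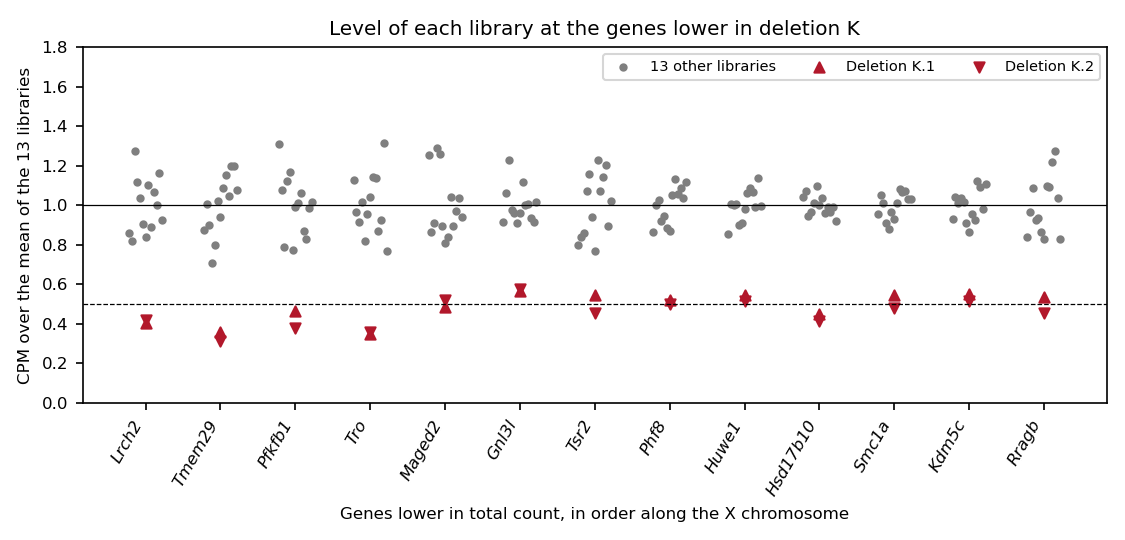
CPM of each library divided by the mean of the 13 other libraries, for the 13 genes lower in total count (triangles, the 2 deletion K libraries; grey dots, the 13 others; dashed line, 0.5). No triangle reaches a grey dot of its gene.

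The other 14 protein-coding genes were not called in edgeR, with changes between -1.28 (Kantr) and -0.44 (Fam120c). DESeq2 called 4 of them (Apex2, Fgd1, Iqsec2 and Tspyl2), and 17 genes inside in all. Apex2, a DNA repair endonuclease, and Fgd1, an activator of the Cdc42 GTPase, came closest in edgeR. Apex2 changed by -1.01 (adjusted p = 0.0606) and Fgd1 by -1.11 (adjusted p = 0.0637), and for both the K libraries lay below the 13. For Fgd1 the 13 were spread from 188 CPM in Deletion I.1 to 377 CPM, with 134 and 139 CPM in the K libraries.

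The same non-overlap held for Ribc1 (-0.97), Iqsec2 (-0.91, an activator of ARF GTPases), Tspyl2 (-0.82, a nucleosome assembly protein) and Shroom2 (-0.87, an actin-binding protein). The remaining 8 genes overlapped with the 13. They were Wnk3 (-0.66, a kinase), Fam120c, Kantr, Gpr173 (-1.03), Gpr143 (-0.79, a receptor of pigment cells), Usp51 (-0.63, a deubiquitinase), Mageh1 and Foxr2 (-0.51, a forkhead factor). Wnk3, at 41.9 and 55.7 CPM, overlapped with a comparison group that ran from 38.9 to 115 CPM. The rest of these 8 genes had low levels, with medians of 2.79 to 24.3 CPM in the 13.

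The 2 clones resembled each other inside the segment. The log2 ratio of K.2 over K.1 had a median of 0.03 over the 27 protein-coding genes and ran from -0.59 (Mageh1) to 0.79 (Kantr). For autosomal genes 95% of these ratios lay between -0.57 and 0.66. Taken alone, K.1 had a median of -0.93 and K.2 of -0.95 relative to the mean of the 13. With a single K clone in the fit, 3 genes (without K.1) or 4 genes (without K.2) remained called, while no fold change of the 13 genes turned.

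The 6 pseudogenes tested did not show the fall. Their median total change was 0.13, from -0.45 (Gm5644) to 0.43 (Gm8464), with 0.16 for Gm6451, 0.10 for Gm15148, 0.39 for Gm4750 and 0.04 for Gm6472, and 5 of the 6 intervals lay above -1. Gm6472 was at 34.9 and 32.3 CPM in the K libraries and at 26.8 to 38.2 CPM in the 13, so its total level overlapped fully. Processed pseudogenes resemble their parent genes elsewhere in the genome, and these counts could hold reads of the parents. The K libraries together had only 20 allelic counts over all pseudogenes inside. Of these, 5 were Mus counts, all at Gm5644 in K.1, although the Mus copy of the segment is deleted. The 13 libraries had 28 allelic counts at Gm5644, 100% of them Mus. The source of the pseudogene reads was not tested.

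Counted per copy, with the number of copies of each gene in each library in the offset of the fit, 1 of the 33 genes was higher and none lower, against 0.00673% and 0% of all genes tested. The gene called was Gm6472, whose total count was not called. This call was lost with the line as a random block in limma voom, without either K clone and against the XX Rnf12 libraries (0 genes each). No protein-coding gene inside was called per copy, and DESeq2 called 1 further pseudogene, Gm8464.

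Reads assigned to Cast were enough to test 14 genes inside, all protein-coding. None was called in edgeR or in DESeq2, none had an unadjusted p under 0.05 (the smallest was 0.225, for Wnk3), and 0% of all 7873 genes tested were called. The log2 change of the Cast count ran from -0.01 (Maged2) to 0.35 (Wnk3), with a median of 0.07, and lay above 0 in 13 of the 14 genes. Medians elsewhere were -0.01 over autosomal genes, with quartiles of -0.17 and 0.15, and 0.04 over X-linked genes outside. The result depended on the reference for 1 gene. Against the XX Rnf12 libraries of another batch, edgeR called 1 of 18 genes tested inside higher (Fgd1), with a median of 0.02.

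The intervals say how much a rise could have escaped. The upper limit lay under 1, a doubling of the Cast copy, for all 14 genes. It lay under a 1.5-fold rise for 7 of them, and ran from 0.29 (Gnl3l) to 0.94 (Wnk3). A rise of 1.2-fold was within the interval of every gene, so no single gene tells it from no change.

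The deepest genes had the narrowest intervals. Gnl3l had 219 and 257 Cast counts in K.1 and K.2 against 197 to 294 in the 13, a change of 0.01 (-0.27 to 0.29). Huwe1 had 400 and 418 Cast counts against 293 to 467, a change of 0.06 (-0.20 to 0.32). Kdm5c had 185 and 187 against 149 to 204, a change of 0.04 (-0.24 to 0.31). The Cast counts of both clones lay inside the range of the 13 for each of these genes.

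Smc1a, with 104 and 113 Cast counts against 84 to 129, changed by 0.06 (-0.28 to 0.40), and Hsd17b10, with 34 and 34 against 23 to 49, by 0.06 (-0.43 to 0.56). Phf8 had 37 and 52 Cast counts against 32 to 50, a change of 0.21 (-0.18 to 0.61). Wnk3 had 38 and 42 against 15 to 51, a change of 0.35 (-0.23 to 0.94). Here too the groups overlapped, with K.2 above the highest of the 13 at Phf8.

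The share of Cast reads in the lines with both copies gives the fold that a loss of the Mus copy alone would leave. This share was not 50% for every gene. In the 13 libraries together it was 29.6% for Tro, 33.7% for Rragb, 55.2% for Gnl3l and 70.9% for Gpr143, while over all autosomal genes it was 46.3% to 49.6% per library. The folds below use the share as counted, with no correction for an autosomal share under 50%. For the 22 protein-coding genes with at least 100 allelic counts in the 13 libraries, the log2 of the Cast share had a median of -1.10. The total fold change of the same genes in deletion K had a median of -0.97.

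The observed fold minus that of the share had a median of 0.11, from -0.30 (Gpr143) to 0.55 (Rragb), and was above 0 in 17 of the 22 genes. It was within 0.25 of 0 in 17 genes. For the 8 genes with at least 1000 allelic counts it ran from -0.06 (Fgd1) to 0.24 (Maged2), with a median of 0.09. Tro, with the lowest Cast share, was expected at -1.76 and observed at -1.50, and Gnl3l was expected at -0.86 and observed at -0.81. Across the 22 genes Pearson's r of both values was 0.712, as a description over genes of the same libraries, which both values share.

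**Figure D4:**
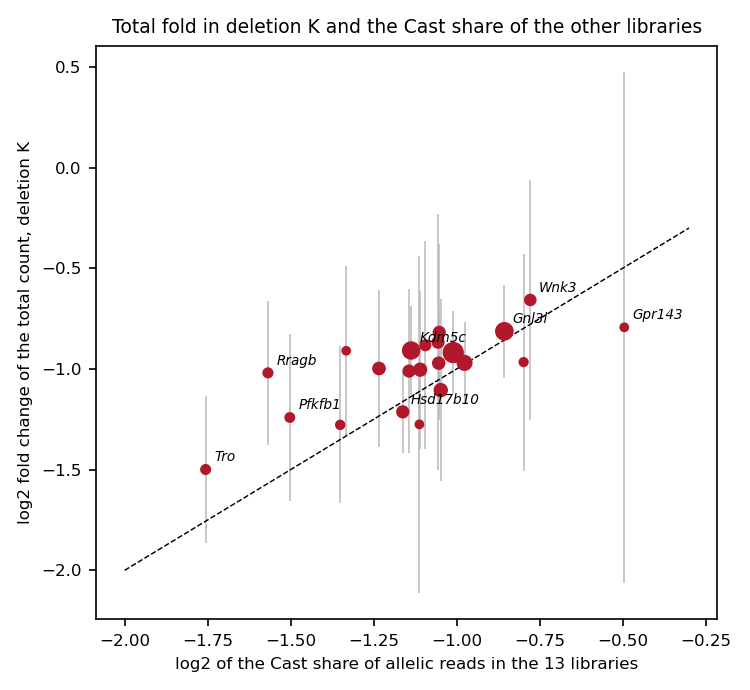
Total log2 fold change in deletion K with its 95% interval against the log2 of the Cast share of allelic reads in the 13 libraries, for 22 protein-coding genes (larger points, more allelic counts; dashed line, equal values). The points follow the line from Tro at the lower left to Gnl3l and Wnk3, with 17 of 22 above it.

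Deletion I-TEL removes the same genes, and X sequence on both sides up to the telomere, from the Mus X chromosome of a second Rnf12+/- founder line. Its 2 libraries were set against the 2 libraries of Deletion J, made in the same founder line and batch, and share no library with the deletion K comparison. In I-TEL, 13 of the 27 protein-coding genes inside deletion K were lower in total count in edgeR, against 0.208% of all genes tested, and 12 of them were called in both comparisons. The median change was -1.01 over these 27 genes, and -0.97 in deletion K. Both I-TEL libraries lay below both J libraries for 26 of the 27 genes, against 20.4% of all genes tested.

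The test of the difference between the deletion K and I-TEL effects, per copy, called none of the 33 genes in edgeR or DESeq2 and 0% of all genes tested. Lrch2 alone had an unadjusted p under 0.05, where 1.32% of all genes did. It was at 5.63 and 7.63 CPM in I-TEL and 25.2 and 23.9 CPM in J, a change of -1.89 against -1.28 in deletion K. The difference was 0.60 (95% interval 0.03 to 1.17, adjusted p = 1).

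Huwe1, Kdm5c and Smc1a gave similar values in both lines. Huwe1 changed by -0.92 in I-TEL and by -0.92 in deletion K, with a difference of -0.01 (-0.31 to 0.28). Kdm5c changed by -0.96 and -0.91, with a difference of 0.03 (-0.27 to 0.34), and Smc1a by -0.89 and -0.97, with a difference of -0.10 (-0.37 to 0.18). Over the 27 protein-coding genes, 15 had estimates within 0.25 of each other and 23 within 0.5, and the median difference was 0.03. Pearson's r of the fold changes in deletion K and I-TEL was 0.301 across these genes, as a description. Gpr143, a gene of low level, was furthest apart, at 0.28 (-1.30 to 1.85) in I-TEL and -0.79 in deletion K. Gm6472 kept its total level here too, at 17.7 and 20.1 CPM in I-TEL against 17.5 and 19.4 CPM in J.

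The borders of the deletion fall near 2 genes. Amot encodes angiomotin, a scaffold of the Hippo pathway at cell junctions, and is transcribed away from the left border, on the minus strand. In GENCODE the gene spans chrX:145446425-145505181, so that its outermost 5′ start lies 1285 bases outside the deletion, and a second transcript starts 18.8 kb outside. Klf8, a Krüppel-like transcription factor, runs on the plus strand (chrX:153237466-153396132) and crosses the right border. Its first 156 kb, with all coding exons, lie inside the deletion, and the border lies in its last exon. The 2.66 kb beyond it hold 51.1% of its exon bases and no coding sequence.

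The 250 bases before the starts of these genes in the RefSeq promoter table (GRCm38.p6) are shown because they lie on either side of the borders. Each is given 5′ to 3′ on the strand of the gene, with CG dinucleotides in capitals. The Amot entry (chrX:145487640-145487889, minus strand) belongs to the inner start and is 18.6 kb outside the left border; the sequence before the outermost start is not shown. The upstream Klf8 start (chrX:153237498-153237747, plus strand) and the downstream one (chrX:153359363-153359612, plus strand) are both inside.
Amot: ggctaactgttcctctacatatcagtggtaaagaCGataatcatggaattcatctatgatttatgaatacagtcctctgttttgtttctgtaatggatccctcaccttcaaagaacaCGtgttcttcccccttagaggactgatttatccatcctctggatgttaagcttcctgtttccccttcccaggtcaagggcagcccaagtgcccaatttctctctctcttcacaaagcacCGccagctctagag
Klf8, upstream start: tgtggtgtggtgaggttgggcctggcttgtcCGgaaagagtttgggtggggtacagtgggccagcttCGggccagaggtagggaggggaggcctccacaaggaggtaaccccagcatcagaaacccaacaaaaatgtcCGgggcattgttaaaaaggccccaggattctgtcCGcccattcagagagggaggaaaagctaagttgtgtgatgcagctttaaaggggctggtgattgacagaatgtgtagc
Klf8, downstream start: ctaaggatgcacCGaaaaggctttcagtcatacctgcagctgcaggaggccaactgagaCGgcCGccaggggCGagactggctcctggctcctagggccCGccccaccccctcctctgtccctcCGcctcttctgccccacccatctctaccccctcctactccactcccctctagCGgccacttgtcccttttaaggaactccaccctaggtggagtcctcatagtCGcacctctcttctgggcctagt

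Counting CG, which reads the same on both strands, the Amot window holds 3, the upstream Klf8 window 4 and the downstream Klf8 window 8. Of the 32851 promoters in the RefSeq table, 71% hold at least 3 in the same 250 bases, 62.2% at least 4 and 43% at least 8. These counts describe the windows only.

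The 2 clones differed at Amot, where the lowest and the highest of the 15 libraries were both deletion K. Amot was at 38.7 CPM in K.1, above all 13 other libraries, and at 6.81 CPM in K.2, below all of them. The 13 ran from 11.4 to 25.5 CPM with a median of 15.0 CPM. K.1 had 34 Mus and 11 Cast counts and K.2 had 0 Mus and 6 Cast counts, where the 13 had 5 to 17 Mus and 4 to 24 Cast counts. The Mus share was 75.6% in K.1 (95% Wilson interval 61.3 to 85.8) and 0% in K.2 (0 to 39), and 45% over the 13 libraries together. As a group the K libraries were not called at Amot (log2 change 0.46, -0.28 to 1.21, adjusted p = 0.998), and the difference between the clones rests on 1 library each and was not tested. Counts do not show whether both clones have the same left border, so that Amot is called outside the deletion only by the border reported for the line.

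Klf8 kept its total level with no Mus read left. It was at 66.2 and 50.8 CPM in K.1 and K.2 and at 45.6 to 89.0 CPM in the 13, median 60.3 CPM, a change of -0.11 (-0.58 to 0.37, adjusted p = 0.998). The interval did not hold -1. The K libraries had 0 Mus counts of 44 and 30 allelic counts, which allows a Mus share of up to 8.03% and 11.4% (Wilson), where the 13 had 12 to 39 Mus counts. Their Cast counts of 44 and 30 compared with 14 to 35 in the 13, so that K.1 lay above all of them and K.2 among them.

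The log2 change of the Klf8 Cast count was 0.66 (0.11 to 1.21) with an unadjusted p of 0.0208, where 4.08% of all genes had a p under 0.05, and an adjusted p of 0.999 in edgeR. Against the XX Rnf12 libraries of the other batch, in place of the 13, the Cast change was -0.30 and the total change -1.0. In I-TEL, Klf8 was at 50.8 and 66.6 CPM against 87.8 and 90.7 CPM in J, a change of -0.61 (-1.19 to -0.04, adjusted p = 1).

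**Figure D5:**
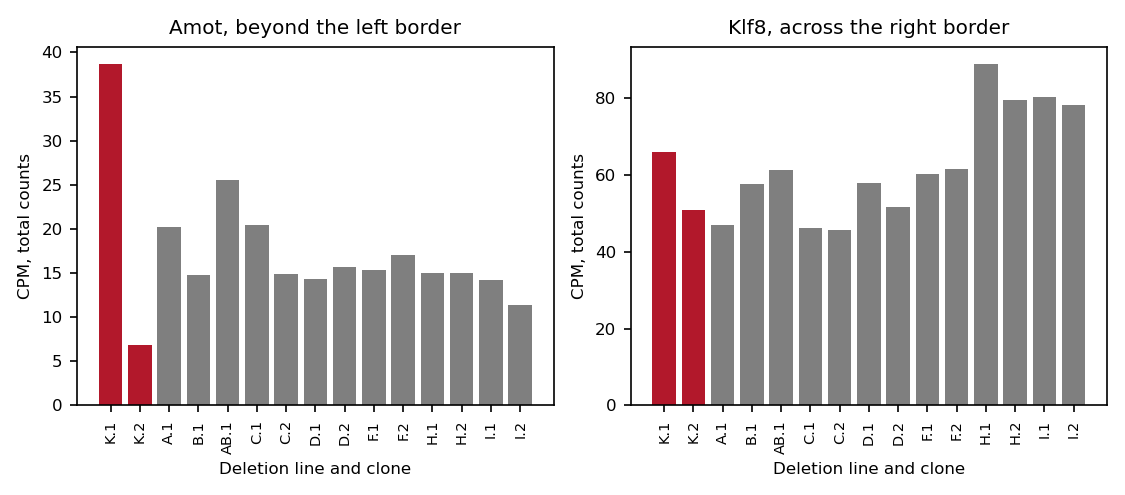
Total CPM of Amot and Klf8 in each library (red, the 2 deletion K libraries; grey, the 13 others). At Amot, K.1 is the highest library at 38.7 CPM and K.2 the lowest at 6.81 CPM. At Klf8 both K libraries lie within the range of the others.

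The other genes within 2 Mb of a border were not called in edgeR, in total counts, per copy or on the Cast allele. Alg13, a subunit of an enzyme of N-glycan synthesis, was at 671 and 682 CPM against 469.6 to 743 CPM on the left. Ubqln2, a ubiquitin receptor 105 kb beyond the right border, was at 199.7 and 184 CPM against 162 to 214 CPM. Its interval of -0.23 to 0.22 was among the narrowest there. Sat1 (0.08), Acot9 (0.16), Prdx4 (-0.12) and Nbdy (0.15) had log2 changes of similar size.

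The other genes there had low levels. On the left they were Pak3 (-0.31), Capn6 (-0.98) and the pseudogenes Gm8199 (0.03) and Gm15066 (-0.12), and on the right Kctd12b (0.44), Spin2c (-0.34) and the pseudogenes Gm7150 (-0.08), Gm6645 (-0.35) and Gm4997 (-0.32). Capn6, a calpain family protein, was at 0.999 and 1.44 CPM in the K libraries and at 0.605 to 5.38 CPM in the 13, with an interval of -2.37 to 0.40. The K values of all 9 genes lay within the range of the 13.

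Outside the deletion edgeR called no gene per copy. Of 14259 autosomal genes tested, edgeR called none, with 590 (4.14%) at an unadjusted p under 0.05, and DESeq2 called 3, of which 1 was higher and 2 lower. Of 556 X-linked genes outside, both tools called none, and 33 (5.94%) had an unadjusted p under 0.05. Klf8, which crosses the right border, is among these genes. The fit gave it both copies in deletion K, so its value per copy equals that of the total count. The median change was -0.01 over autosomal genes and -0.02 over X-linked genes, with quartiles of -0.19 and 0.13 for the latter.

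Partners of the proteins encoded inside were looked at in lists. None of their members outside the deletion was called in edgeR. The other 17 cohesin genes tested had a median change of 0.02, the 6 other histone demethylases on the list (Kdm1a, Kdm1b, Kdm5a, Kdm5b, Kdm7a and Phf2) 0.02, and 10 described HUWE1 substrates 0.03. These values are RNA levels and do not show the levels of the proteins, such as the substrates of HUWE1. The 3 partners in mitochondrial tRNA processing stood at -0.02, the 9 genes of small-subunit biogenesis at 0.08, the 4 nucleolar GTPases at 0.11, the 11 Rag and Ragulator genes at -0.01 and the 15 base excision repair genes at -0.05. Haem synthesis (8 genes, -0.03), the phosphofructokinase-2 family (3 genes, 0.01), the remaining MAGE genes (6 genes, -0.08) and p53 targets (17 genes, -0.03) were also near the median of all genes.

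Germline genes, which KDM5C is known to repress in mESCs, had a median of -0.56 over 15 genes tested, with 11 below 0, none called and 2 at an unadjusted p under 0.05, where 4.27% of all genes tested per copy had such a p. Cell state markers were not called either. The median change was 0.07 over 15 naive pluripotency genes, -0.26 over 10 formative and primed genes, -0.44 over 8 primitive endoderm genes (3 at an unadjusted p under 0.05) and -0.03 over 4 trophoblast genes, and the single 2-cell-like gene tested stood at -0.87. The 20 fibroblast feeder genes had a median of -0.79. The 5 X-inactivation genes tested had a median of -0.14, and the 12 genes of the MSL and NSL complexes, which acetylate histone H4, 0.08.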

How the data were processed

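RNA was sequenced from poly(A) libraries (Truseq stranded mRNA), as paired reads of 50 bases or, for the XO cells, single reads. The authors trimmed the reads with Trim Galore 0.6.7 and mapped them (HISAT2 2.2.1) to an mm10 genome in which 129/Sv and Cast/Ei differences had been masked. They split them by allele and deposited strand-specific counts per gene, as total, Mus and Cast counts, with no normalization. The tools listed with the samples include SAMtools 1.10 and HTSeq 0.12.4.

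Gene positions came from GENCODE M21, which matched 55240 of 55421 genes. Genes with a mean count of at least 10 over the 15 libraries were tested in edgeR 4.0.16 (quasi-likelihood test, R 4.3.3) with Benjamini-Hochberg adjustment and a threshold of 0.05. TMM factors came from autosomal genes. There were 4 fits: total counts, total counts with the log copy number of each X-linked gene in the offset (per copy), Cast counts with their own factors, and, over 19 libraries, the deletion K effect minus the effect of I-TEL against J. Totals of 8815980 to 10679746 counts set the precision. The edgeR p-values rest on the spread between libraries, within and between lines, with clones of a line taken as independent. The fits were also run on simulated counts with 1 of 2 copies inside and no change per copy. There the per copy fit called 58 of 100 autosomal changes of 1 on the log2 scale and 90 of 100 changes of 2. It also called 7 of 14059 unchanged genes, and the total count fit called 20 of 33 genes inside lower. Simulated libraries were drawn independently, with no effect shared by clones of a line. These rates therefore do not cover a dependence between clones.

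All genes inside the deletion that passed the filter are given, with those within 2 Mb of a border and any called member of 21 gene lists. Called genes outside were to be named by fold, and there was 1 in total counts (Adap1). Members and lists were chosen with earlier results of these data known. Alternatives were DESeq2 1.42.0, limma 3.58.1, other factors, filters and references, a replicate block, and leaving out libraries or lines. Leaving out Deletion I.1 with F.2, and each I-TEL or J library, was added after seeing the data. Figures used matplotlib 3.10.9.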

Additional observations from a re-analysis of the deposited data

How the results depend on the processing

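No called value changed sign under any alternative run. Leaving out 1 library at a time gave 3 to 14 genes lower in total count inside deletion K, with the lowest values of 3 without K.1 and 4 without K.2 and 11 to 14 without any other library. It gave 0 to 1 genes per copy inside (0 without either K clone), 0 to 0 on autosomes, on the X outside, on the Cast allele and in the difference from I-TEL, and medians of -0.92 to -0.88 for total counts and 0.05 to 0.10 for Cast counts. DESeq2 called 3 autosomal genes and 2 genes per copy inside. A term per line, whose error is the spread between clones of a line alone, called 265 autosomal genes (182 higher), 22 X-linked genes outside, 5 per copy inside and 21 in total count inside. With the line as a random block in limma voom these were 0 per copy and 5 in total count inside. With the XX Rnf12 libraries of another batch as reference, 25 autosomal genes, 3 X-linked genes outside, 0 per copy inside and 1 on the Cast allele (Fgd1, 0.89) were called, with medians of -0.81 for total and 0.02 for Cast counts. The median of the protein-coding genes alone was -0.97. All other alternatives gave the same calls or counts within 1.5 times.

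No label says that clone numbers mark a shared batch or day. Over the 15 pairs of lines with 2 clones, the difference of clone 1 and 2 correlated between -0.139 and 0.233 across 14259 autosomal genes, and 3 pairs were over 0.1. With a replicate block 11 genes inside were lower in total count, 1 was higher per copy, and 0 were called on autosomes, on the X outside and on the Cast allele.

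Maged2 and Tsr2 were called in 12 and 13 of 32 alternatives, Apex2 in 7 and Fgd1 in 6. Allelic counts of 1115259 to 1334130 per library limit the Cast test to 14 of the 27 protein-coding genes tested inside.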

Other observations

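Adap1, on chromosome 5 (an adaptor that binds inositol phosphates), was the only gene outside deletion K called in total counts. It was at 43.0 and 48.0 CPM in K.1 and K.2 and at 17.2 to 31.6 CPM in the 13, median 25.1 CPM, a log2 change of 0.89 with an adjusted p of 0.0481 in edgeR. In the fit per copy, which tests the same counts beside other X-linked values, its adjusted p was 0.316, and it was called in 13 of the 32 alternatives for total counts.

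The genes below were picked after their values were seen and none was called in edgeR. Gpat2, a germ cell acyltransferase homologue, was at 3.5 and 3.84 CPM against 7.06 to 16.4 CPM (-1.57, adjusted p = 0.807). Syne2, a nuclear envelope protein, was at 22.6 and 26.3 CPM against 31.4 to 47.7 CPM (-0.65, adjusted p = 0.807), and Krt42, a keratin, at 37.5 and 32.4 CPM against 10.1 to 27.1 CPM (0.97, adjusted p = 0.998). Col4a1, a basement membrane collagen on the primitive endoderm list, was at 41.8 and 41.9 CPM against 55.3 to 106 CPM (-0.88, adjusted p = 0.807). Gata6 on the same list was at 0.7 and 1.44 CPM against 0.568 to 6.05 CPM, Lamb1 at 297 and 306 CPM against 204 to 348 CPM, Sox7 at 6.4 and 3.45 CPM against 0.535 to 10.6 CPM (0.81) and Lama1 at 204 and 159 CPM against 71.8 to 195 CPM (0.49). Both K libraries lay outside the range of the 13 for Gpat2, Syne2, Krt42 and Col4a1, as they did for 1.32% of all genes on the lower side and 1.29% on the higher side. Of the fibroblast feeder markers, Col5a1 was at 49.0 and 40.2 CPM against 43.4 to 102 CPM and Col1a1 at 42.0 and 38.4 CPM against 30.8 to 164 CPM, and their part in these values was not tested.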
